A study of Mus musculus with 6 samples.

Results

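Il10, Prdm1, Maf, Bhlhe40, Bcl6, Id2, Il27ra, Il10ra, Ebi3 and Tgfb1 were examined as a group of genes around Blimp1, interleukin-10 (IL-10) and the regulatory side of Th1 cells. They are 10 of the 54532 genes listed in the count table, and each was found there once by its symbol. The group was put together with results of the same comparison in view, and Prdm1 was chosen by its measured rise in counts from the control to the ALX-5407 libraries. The levels of the 10 genes are therefore given as a description, with no p-values, and where a gene is said to be called or not called in the fit over all genes, that too is a description and supports nothing.

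The study asked how blocking GlyT1, the glycine transporter encoded by Slc6a9, changes Th1 cells. CD4+ T cells sorted from mouse spleen were cultured under Th1 conditions for 72 h. The control group received vehicle (0.1% DMSO), and the ALX-5407 group received 500 nM of ALX-5407, a GlyT1 inhibitor. RNA was sequenced from 3 libraries of each group, and no strain, age or genotype is given in the labels of these samples. The labels call the samples biological replicates without saying whether each came from its own mouse. The p-values therefore set the group difference against the spread between these samples only, and whether that spread includes the spread between mice is not known.

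IL-10 is a cytokine that restrains antigen-presenting cells and inflammation, and Th1 cells can make it together with interferon-γ. Blimp1 (Prdm1) and c-Maf (Maf) are transcription factors known to favour Il10 transcription in CD4+ T cells, and IL-27, made of EBI3 and p28 and read through Il27ra, is a known inducer of both c-Maf and IL-10. BHLHE40 is known to repress Il10, and Bcl6, the regulator of follicular helper T (Tfh) cells, and Blimp1 repress each other.

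The libraries held 30801753 to 36727788 counts, with scaling factors from 0.965 to 1.03, and 15938 genes passed the filter on low counts. Levels are given as CPM, the usual unit of counts scaled to the size of the library, here after TMM scaling of the library sizes. Every CD4 T cell marker was detected. Their levels summed to 2014 to 2179 CPM in the control libraries and 1982 to 2049 CPM in the ALX-5407 libraries. Cd4, Cd3d and Cd3g fell (log2 fold changes -0.46, -0.39 and -0.35), Cd28 rose (0.52), and Cd3e and Trac were not called. The 6 Th1 markers summed to 1230 to 1406 CPM and 1036 to 1080 CPM. Ifng fell from 660 to 383 CPM on average and Stat4 from 63.9 to 28.6 CPM. Tbx21 and Hlx rose (log2 fold changes 0.34 and 1.81), and Cxcr3 and Il12rb2 were not called. Slc6a9, whose product the compound blocks, had 227, 214 and 146 counts in the control libraries and 530, 570 and 600 in the ALX-5407 libraries, and transcript counts do not measure transporter activity. No library was left out.

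All 10 genes passed the filter. At an adjusted p under 0.05 (quasi-likelihood test of edgeR, Benjamini-Hochberg over all genes), 7 of them were called, 5 higher (Il10, Prdm1, Maf, Id2 and Tgfb1) and 2 lower (Bhlhe40 and Bcl6) in the ALX-5407 group. Among all genes tested, 47.7% were called, 24.5% higher and 23.2% lower. With a log2 fold change beyond 1 in either direction as well, 3 of the 10 were called, Prdm1, Maf and Il10, against 10% of all genes, 3.36% higher and 6.68% lower. The CPM of the groups did not overlap for 8 of the 10 genes, 5 higher and 3 lower, and for 55.5% of all genes tested, 28.4% higher and 27.1% lower. Because the choice of the 10 genes used this comparison, nothing is read from these counts.

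**Figure D1:**
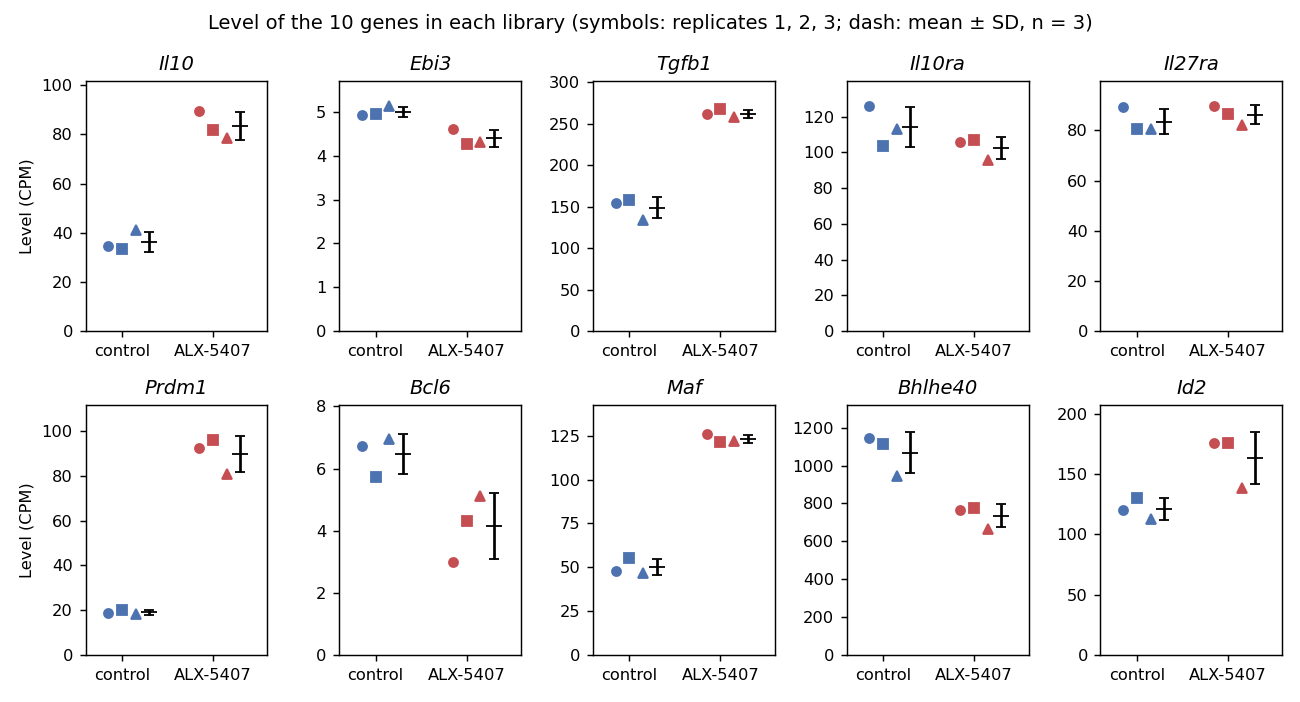
Level of each of the 10 genes in CPM (y axes from 0, a scale of its own for each gene) in the 3 control and the 3 ALX-5407 libraries, with points for libraries and bars for the group mean ± SD. The groups overlap for Il27ra and Il10ra, and for Prdm1 the control points lie between 18.3 and 20.1 CPM and the ALX-5407 points between 80.7 and 96.1 CPM.

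Il10, which encodes the cytokine itself, lies at chr1:131019845-131024974 on the plus strand of GRCm38 and has 1 annotated transcript of 5 exons. It had 1130, 1051 and 1261 counts in the control libraries and 3165, 3045 and 2758 in the ALX-5407 libraries. The lowest ALX-5407 library thus held more Il10 reads than any control library. Its level was 34.7, 33.5 and 41.0 CPM in the control group and 89.6, 81.6 and 78.7 CPM in the ALX-5407 group. The group means were 36.4 ± 4.01 and 83.3 ± 5.67 CPM (SD, n = 3), which is 2.29-fold (log2 fold change 1.19, SE 0.0887). In the order of log2 fold changes from the highest, Il10 stood at place 400 of 15938 genes. Since these are bulk cultures, more cells that make a transcript and more transcript per cell cannot be told apart, for Il10 or for any gene below.

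Ebi3 encodes the subunit that IL-27 and IL-35 share. Its gene (chr17:55952640-55957022, plus strand) has 1 transcript of 5 exons. It was sparse, with 160, 155 and 158 counts in the control libraries and 163, 159 and 151 in the ALX-5407 libraries. The level was 4.91, 4.94 and 5.13 CPM against 4.62, 4.26 and 4.31 CPM. The ranges did not overlap, and the log2 fold change was -0.19 (SE 0.159), not called. Of its exon bases, 23.4% are shared with the antisense gene Gm16712, which had 26 to 115 counts, and since the strand setting of the counting is not stated the counts of Ebi3 are uncertain.

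Tgfb1 encodes transforming growth factor-β1, a cytokine that T cells release in latent form and that restrains effector cells. The gene lies at chr7:25687002-25705077 on the plus strand, with 5 transcripts of up to 7 exons. It had 5014, 4950 and 4139 counts in the control libraries and 9229, 9976 and 9045 in the ALX-5407 libraries. In CPM these were 154, 158 and 134 against 261, 267 and 258. The ALX-5407 libraries lay close together, at 262 ± 4.78 CPM, above the control mean of 149 ± 12.5 CPM (SD, n = 3). The log2 fold change was 0.82 (SE 0.0753), or 1.76-fold. By quantitative PCR of Th1 cultures with ALX-5407, the study itself reported Tgfb1 unchanged and Il10 raised. Why its Tgfb1 result differs from the counts was not tested.

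The receptor genes Il27ra and Il10ra showed no such separation. Il27ra, the ligand-binding chain of the IL-27 receptor, lies at chr8:84030294-84042589 on the minus strand, with up to 14 exons. Its level was 89.4, 80.7 and 80.6 CPM in the control libraries and 89.8, 86.7 and 82.3 CPM in the ALX-5407 libraries. The groups overlapped, and the log2 fold change was 0.046 (SE 0.0741). Il10ra, the chain of the IL-10 receptor that binds IL-10, lies at chr9:45253837-45269149 on the minus strand. It had 126, 103 and 113 CPM in the control libraries and 106, 107 and 95.6 CPM in the ALX-5407 libraries. Again the groups overlapped, and the log2 fold change was -0.15 (SE 0.0815), not called. It was called lower without control replicate 2, at a log2 fold change of -0.23.

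Prdm1 encodes Blimp1, a zinc finger repressor that drives plasma cell differentiation and, in T cells, effector differentiation and Il10 expression. The gene covers chr10:44437177-44528501 on the minus strand, with 4 transcripts of up to 8 exons. It had 605, 630 and 563 counts in the control libraries and 3262, 3585 and 2831 in the ALX-5407 libraries. Expressed as CPM, these were 18.6, 20.1 and 18.3 against 92.4, 96.1 and 80.7. Each ALX-5407 library was far above every control library. The means were 19.0 ± 0.967 and 89.7 ± 8.01 CPM (SD, n = 3), which is 4.73-fold (log2 fold change 2.24, SE 0.0881). By log2 fold change Prdm1 stood at place 59 of the 15938 genes, and at place 17 of the 12117 genes with a mean count of at least 50. It had the largest log2 fold change of the 10 genes, on which it was picked.

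Bcl6, a repressor that directs Tfh cells and is known as the counterpart of Blimp1, lies at chr16:23965052-23988852 on the minus strand, with 2 transcripts of up to 10 exons. It was low, with 219, 180 and 214 counts in the control libraries and 106, 161 and 179 in the ALX-5407 libraries. Its level was 6.73, 5.74 and 6.95 CPM against 3.00, 4.32 and 5.11 CPM. The ALX-5407 libraries were below every control library but spread widely, with a coefficient of variation of 25.7%. The means were 6.47 ± 0.644 and 4.14 ± 1.06 CPM (SD, n = 3), with a log2 fold change of -0.64 (SE 0.190). Without ALX-5407 replicate 1, the lowest library, the log2 fold change was -0.46 and Bcl6 was no longer called.

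Prdm1 was higher and Bcl6 lower in the ALX-5407 group, and the start regions of both are shown for the motifs that Blimp1, BCL6, STAT proteins, BHLHE40 and AP-1 or MAF proteins are known to recognise. The sequences are the 250 bases before RefSeq transcription starts on GRCm38.p6, read 5′ to 3′ along the gene's minus strand. Capitals mark matches, on either strand, to GAAAGT (Blimp1 core), TTCNNNGAA (STAT and BCL6 palindrome) and CACGTG (E-box bound by BHLHE40). They also mark TGANTCA, a loose form of the AP-1 and MARE core that allows any base at N. The Prdm1 window, chr10:44458749-44458998, lies inside the annotated span of the gene and covers no exon base. The Bcl6 windows precede an internal start, chr16:23981284-23981533, and the upstream start, chr16:23988853-23989102.
Prdm1: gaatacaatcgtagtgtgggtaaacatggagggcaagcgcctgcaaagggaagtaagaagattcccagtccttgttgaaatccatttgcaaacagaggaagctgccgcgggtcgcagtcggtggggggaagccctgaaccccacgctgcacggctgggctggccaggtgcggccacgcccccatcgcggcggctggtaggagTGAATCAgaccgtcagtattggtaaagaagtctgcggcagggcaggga
Bcl6, internal start: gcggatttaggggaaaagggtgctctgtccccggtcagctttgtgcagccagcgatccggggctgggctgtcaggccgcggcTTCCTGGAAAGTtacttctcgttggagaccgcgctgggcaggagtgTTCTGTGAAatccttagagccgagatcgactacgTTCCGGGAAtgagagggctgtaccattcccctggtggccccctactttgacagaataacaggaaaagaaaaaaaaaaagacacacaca
Bcl6, upstream start: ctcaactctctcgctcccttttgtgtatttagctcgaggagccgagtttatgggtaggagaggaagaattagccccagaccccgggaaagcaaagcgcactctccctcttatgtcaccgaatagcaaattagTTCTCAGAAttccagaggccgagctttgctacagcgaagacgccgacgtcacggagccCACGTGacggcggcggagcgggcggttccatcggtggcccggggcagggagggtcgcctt

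The Prdm1 window held 1 match to TGANTCA, at -48 to -42 counted from the start, and none to the other motifs in capitals. Its letters were TGAATCA, with A at the free position, so it is a match to the loose pattern only. The internal Bcl6 window held 3 matches to TTCNNNGAA, at -168 to -160, -122 to -114 and -88 to -80, and 1 match to GAAAGT at -162 to -157 that overlaps the first of them. The upstream Bcl6 window held 1 TTCNNNGAA, at -118 to -110, and 1 CACGTG, at -60 to -55. Among 32851 RefSeq promoters of the same length, 12.3% held GAAAGT, 7.02% TTCNNNGAA, 6.02% CACGTG and 6.75% TGANTCA. The more common letters CANNTG (E-box of E proteins, which includes CACGTG) and GGAAA (NFAT core) were in 66.2% and 55.6% of promoters. CANNTG matched 2 times in the Prdm1 window, and GGAAA matched 3 times in the internal Bcl6 window. RefSeq windows were matched for 5 of the 10 genes. In the windows of Tgfb1, Id2 and Ebi3, none of the motifs in capitals was found. A match describes letters only and is not evidence of binding.

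Maf encodes c-Maf, a leucine zipper factor that binds the Il10 promoter. The gene lies at chr8:115682942-115707794 on the minus strand, with 2 transcripts of up to 3 exons. It had 1568, 1731 and 1447 counts in the control libraries and 4442, 4523 and 4283 in the ALX-5407 libraries. Its level was 48.2, 55.2 and 47.0 CPM against 126, 121 and 122 CPM. The ALX-5407 libraries differed little among themselves, and all lay above the control range. The means were 50.1 ± 4.44 and 123 ± 2.41 CPM (SD, n = 3), which is 2.45-fold (log2 fold change 1.30, SE 0.0779). Of its exon bases, 5.34% are shared with the antisense gene Gm15655, which had 0 counts in every library.

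Bhlhe40, a basic helix-loop-helix repressor of Il10 that T cells induce on activation, lies at chr6:108660629-108666925 on the plus strand. It was among the most abundant transcripts, since 99.2% of the genes tested had a lower mean count. Counts were 37237, 34990 and 29129 in the control libraries and 27048, 28923 and 23291 in the ALX-5407 libraries. Scaled to library size, these were 1144, 1116 and 947 CPM against 766, 775 and 664 CPM. After scaling, every ALX-5407 library was below every control library. The means were 1069 ± 107 and 735 ± 61.6 CPM (SD, n = 3), with a log2 fold change of -0.54 (SE 0.0859), or 0.688 of the control level.

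Id2 encodes an inhibitor of E proteins that is abundant in Th1 cells and opposes the Tfh programme. The gene lies at chr12:25093799-25097140 on the minus strand, with 3 transcripts of up to 4 exons. It had 3901, 4089 and 3473 counts in the control libraries and 6212, 6554 and 4859 in the ALX-5407 libraries. The CPM were 120, 130 and 113 against 176, 176 and 139. ALX-5407 replicate 3 was closest to the control libraries but did not overlap them. The means were 121 ± 8.85 and 163 ± 21.5 CPM (SD, n = 3), with a log2 fold change of 0.43 (SE 0.0917), or 1.35-fold.

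Overlap with other genes was small elsewhere in the group. Bhlhe40 shares 2.51% of its exon bases with the antisense gene 0610040F04Rik, Bcl6 0.313% with Gm37419 and Il27ra 0.0572% with Palm3, which had at most 36, 5 and 230 counts in any library. Prdm1, Il10, Id2, Tgfb1 and Il10ra share no exon base with another annotated gene.

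**Figure D2:**
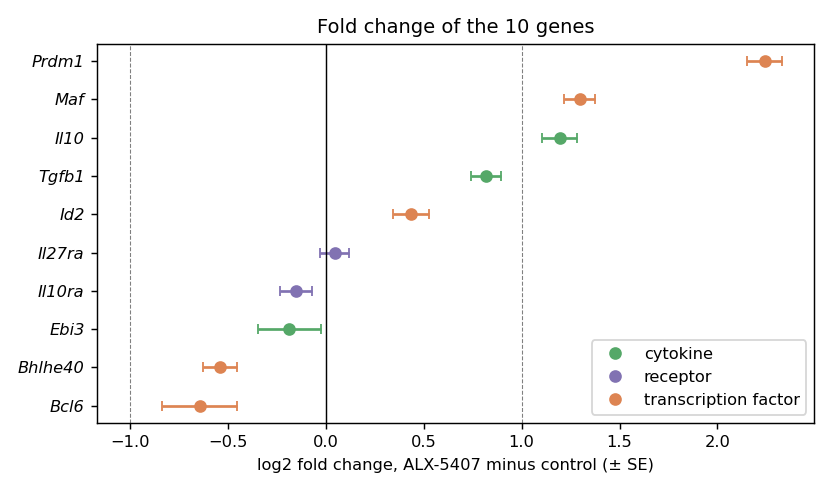
Log2 fold change of each of the 10 genes, ALX-5407 minus control (x axis), with bars of ± SE from the fit over all genes. Prdm1 lies highest at 2.24, Maf and Il10 lie above 1, and Bcl6 lies lowest at -0.64.

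As a set, 6 of the 10 genes had a log2 fold change above 0, and their median was 0.24 against a median of 0.0053 over all genes tested, of which 8041 were above 0. The choice of the genes enters this median, so nothing is read from it.

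Divided by gene length, the levels could be compared between genes as CPM per kilobase. In the control group Bhlhe40 was highest at 227 ± 22.7, followed by Id2 at 49.6 ± 3.63, Il10ra at 32.6 ± 3.18, Tgfb1 at 29.5 ± 2.49, Il10 at 27.8 ± 3.06 and Il27ra at 23.9 ± 1.45 CPM per kilobase (SD, n = 3). Lower levels were those of Maf at 6.08 ± 0.538, Ebi3 at 4.33 ± 0.104, Prdm1 at 3.40 ± 0.173 and Bcl6 at 0.966 ± 0.0962 CPM per kilobase. Il10ra overlapped Tgfb1, and Tgfb1 overlapped Il10, so their order is not resolved. In the ALX-5407 group the order was Bhlhe40 at 156 ± 13.1, Id2 at 67.0 ± 8.81, Il10 at 63.6 ± 4.33, Tgfb1 at 52.0 ± 0.948, Il10ra at 29.4 ± 1.76 and Il27ra at 24.7 ± 1.08 CPM per kilobase. Prdm1 at 16.1 ± 1.44 and Maf at 14.9 ± 0.292 followed, above Ebi3 at 3.81 ± 0.167 and Bcl6 at 0.618 ± 0.159 CPM per kilobase. Here Id2 overlapped Il10 and Prdm1 overlapped Maf. Per kilobase, Prdm1 was thus below Ebi3 in the control group and above it in the ALX-5407 group. Il10 was below Il10ra on average in the control group and above it in the ALX-5407 group. By mean CPM without division by gene length, Prdm1 was above Ebi3 and Il10 below Il10ra in both groups. Both changes of order therefore depend on the division by gene length.

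**Figure D3:**
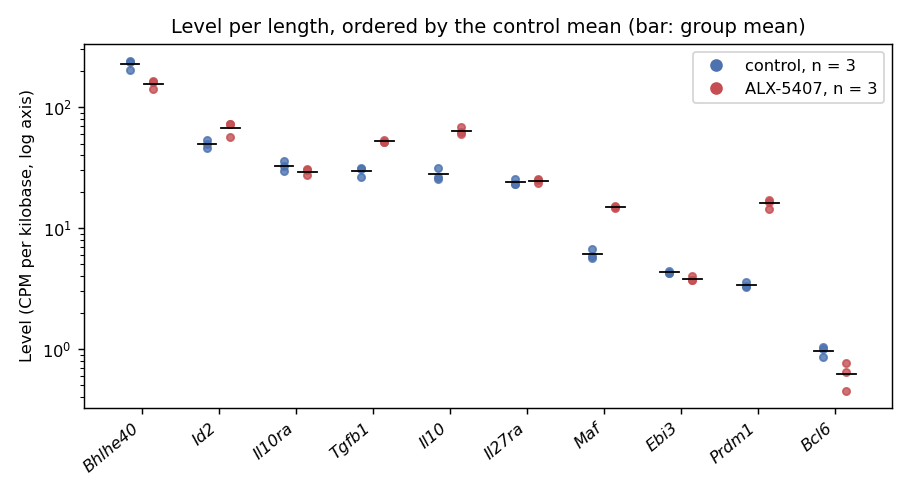
Level per length of the 10 genes in CPM per kilobase (log y axis), ordered by the control mean, with a point for each library and a bar for each group mean. Bhlhe40 is highest and Bcl6 lowest in both groups, while Prdm1 lies at 3.40 in the control group and at 16.1 in the ALX-5407 group.

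Ratios of counts per kilobase within a library, which need no scaling between libraries, were taken for pairs of genes with opposed or linked roles. Apart from Id3, the genes in these pairs belong to the group put together with results of this comparison in view. The ratios are therefore a description only. The ratio of Prdm1 to Bcl6 was 3.32, 4.20 and 3.16 in the control libraries and 37.0, 26.7 and 19.0 in the ALX-5407 libraries. The mean was 7.74-fold higher in the ALX-5407 group, with a wide spread (27.6 ± 9.01 against 3.56 ± 0.563, SD, n = 3). Prdm1 was picked on its rise in these same libraries, so that choice enters the higher ratio and nothing is read from it. The ratio of Maf, an activator of Il10, to Bhlhe40, a repressor, was 0.0240, 0.0282 and 0.0284 against 0.0938, 0.0893 and 0.105, a 3.57-fold difference of the means. For Il10 and its receptor chain Il10ra, the ratio was 0.737, 0.865 and 0.965 against 2.26, 2.04 and 2.20. The groups did not overlap, and by counts without division by gene length the means were 0.321 and 0.812, a ratio below 1 in both groups. The ratio of Id2 to its relative Id3, a pair chosen after the values were seen, was 6.65, 8.05 and 5.45 against 9.16, 6.80 and 5.98, and here the groups overlapped.

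**Figure D4:**
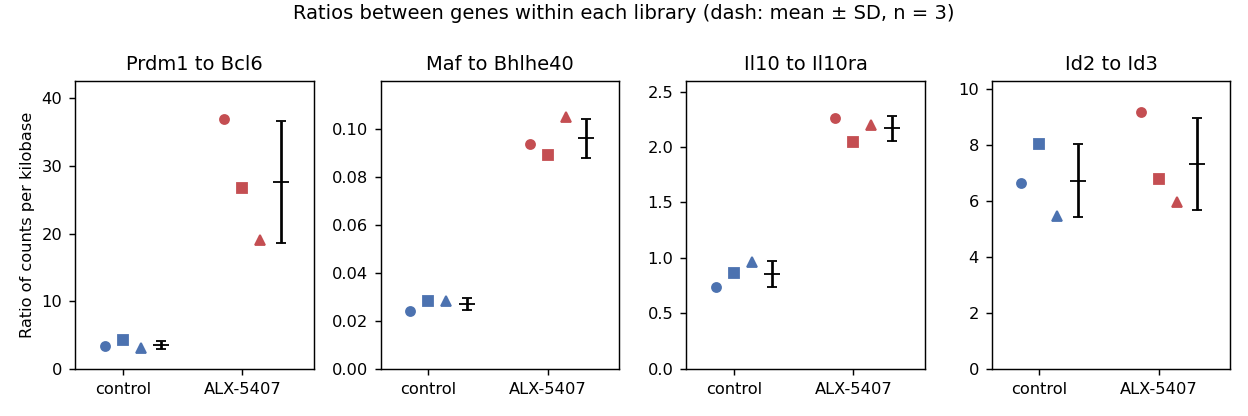
Ratio of counts per kilobase within each library for pairs of genes (y axes from 0, a scale of its own for each pair), with points for libraries and bars for the group mean ± SD. The Prdm1 to Bcl6 ratio lies between 3.16 and 4.20 in the control group and between 19.0 and 37.0 in the ALX-5407 group, and the Id2 to Id3 ratios overlap.

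The genes with the profile most like Prdm1 and Il10 were found by the root mean square difference of log2 CPM over the 6 libraries, each gene relative to its own control mean, among genes with a mean count of at least 50. Nearest to Prdm1 were Slc7a11, a cystine transporter, at 0.112, Ccdc85c at 0.140, Map1b at 0.153, Fgl2 at 0.154 and Gcnt4 at 0.188 on the log2 scale. Nearest to Il10 were Rnf213 at 0.0538, Plec at 0.0677, 9130023H24Rik at 0.0773, Gbp4, an interferon-induced GTPase, at 0.0842 and Smim13 at 0.0925. These genes were chosen for their likeness in the same libraries. Since each gene was taken relative to its control mean, the likeness is largely that of the fold change. Log2 fold changes lay between 2.19 and 2.35 for the genes nearest to Prdm1, and between 1.12 and 1.27 for those nearest to Il10. Shared regulation was not tested.

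Genes around the 10 were taken as 13 lists from general knowledge, holding 175 further genes, of which 161 were tested. Of these, 66 rose, 46 fell and 49 did not pass an adjusted p of 0.05 in the quasi-likelihood test of edgeR, with p-values adjusted by Benjamini-Hochberg over the whole table. Their median log2 fold change was 0.080. The share called was 69.6%, above the 47.7% of all genes given before, but the lists were drawn up with results of this comparison known and none was tested as a set. Adjusted p-values below are from the same test.

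Among 24 further regulators of Il10, 11 rose and 7 fell, with a median log2 fold change of 0.16. Notch1, a receptor that can act with c-Maf on Il10, rose from 158 ± 14.3 to 294 ± 0.490 CPM (log2 fold change 0.89, SE 0.0759, adjusted p = 1.23e-07). Stat4, which transmits IL-12 signals in Th1 cells, fell from 63.9 ± 7.94 to 28.6 ± 0.355 CPM (log2 fold change -1.16, adjusted p = 5.55e-08). Ahr, a ligand-activated factor that partners c-Maf in type 1 regulatory (Tr1) cells, fell from 18.3 ± 1.90 to 6.37 ± 0.371 CPM (log2 fold change -1.52, adjusted p = 7.14e-08). Rora, a nuclear receptor, fell by 0.68 on the log2 scale (adjusted p = 1.79e-06). Unlike Ahr, Maf was higher in the ALX-5407 libraries.

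Of the IL-10 family apart from Il10 and Il10ra, 6 of 10 genes were tested, 1 rose and 3 fell. Il24, a relative that lies near Il10 on chromosome 1, fell from 222 ± 12.7 to 66.0 ± 3.58 CPM (log2 fold change -1.75, adjusted p = 1.04e-10), opposite in direction to Il10. Il22 was low and fell from 3.18 ± 0.428 to 1.45 ± 0.157 CPM (adjusted p = 0.000739). Il20rb rose at an adjusted p of 0.041 (log2 fold change 0.74), with overlapping groups, and it lost its call when any library other than ALX-5407 replicate 2 was left out, at log2 fold changes between 0.50 and 0.84.

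Of the IL-27 and IL-12 family apart from Ebi3 and Il27ra, 3 of the 5 genes tested rose and 1 fell. Il6st encodes gp130, the chain that pairs with Il27ra, and rose from 49.5 ± 2.70 to 70.7 ± 3.16 CPM (log2 fold change 0.51, adjusted p = 3.62e-05). Il12rb1, shared by the IL-12 and IL-23 receptors, rose by 0.89 on the log2 scale (adjusted p = 1.04e-07), and Il23r fell from 21.5 ± 4.14 to 5.22 ± 0.545 CPM (log2 fold change -2.04, adjusted p = 1.91e-08). Il23a, the p19 subunit of IL-23, rose from 0.973 ± 0.290 to 4.08 ± 0.598 CPM (adjusted p = 5.78e-06). In the JAK-STAT arm, 7 of 15 genes rose and 3 fell. Stat3, which carries IL-10 signals, fell from 929 ± 87.6 to 608 ± 32.1 CPM (log2 fold change -0.61, adjusted p = 1.06e-05), and the phosphatase gene Ptpn2 fell by 0.75 on the log2 scale (adjusted p = 2.4e-07). Socs2 and Cish, feedback inhibitors of cytokine signals, rose by 0.86 and 0.34 (adjusted p = 8.82e-07 and 0.00114).

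Of 12 genes listed as targets of repression by Blimp1, apart from the 10, 6 rose, 1 fell and 5 did not pass. The share called was 58.3%, against 47.7% of all genes tested, 24.5% higher and 23.2% lower. Bcl6, at a log2 fold change of -0.64, is 1 of the 10 and so is not counted among these targets. Myc, the growth regulator, rose from 174 ± 5.31 to 259 ± 24.4 CPM (log2 fold change 0.57, adjusted p = 1.62e-05). Il2 was low and rose from 1.34 ± 0.197 to 2.88 ± 0.203 CPM (adjusted p = 0.00114). Klf2, a factor of T cell trafficking, rose from 5.17 ± 1.34 to 13.6 ± 1.76 CPM (log2 fold change 1.39, adjusted p = 5.51e-06). The gene that fell was Ccr7, the homing receptor for lymph nodes, from 777 ± 47.7 to 539 ± 29.1 CPM (log2 fold change -0.53, adjusted p = 2.31e-05). Of 14 corepressors of Blimp1 and Bcl6, 7 rose and 1 fell. Tle3, a Groucho corepressor, rose from 224 ± 24.6 to 393 ± 4.50 CPM (log2 fold change 0.81, adjusted p = 6.38e-07), and Bcor, which binds Bcl6, rose by 0.69 on the log2 scale (adjusted p = 1.03e-06). Tle4, a relative of Tle3, rose by 0.63 (adjusted p = 0.00165).

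Of 22 genes of Tfh cells, the lineage that Bcl6 directs, 8 rose and 7 fell, with a median of 0.071. Cd200, a surface glycoprotein, fell from 466 ± 45.4 to 154 ± 13.3 CPM (log2 fold change -1.60, adjusted p = 1.12e-09). Sh2d1a, the adaptor SAP, fell by 1.00 on the log2 scale (adjusted p = 2.39e-07), and the SLAM receptor gene Slamf6 rose by 0.95 (adjusted p = 1.2e-05). Btla, an inhibitory receptor also in the next list, fell from 298 ± 47.4 to 140 ± 12.0 CPM (log2 fold change -1.09, adjusted p = 2.55e-07). Of 20 coinhibitory and Tr1 genes, 5 rose and 9 fell, with a median of -0.29. Havcr2, which encodes TIM-3, rose from 6.11 ± 0.597 to 14.7 ± 1.19 CPM (log2 fold change 1.27, adjusted p = 7.98e-07). Pdpn, podoplanin, fell from 5.16 ± 0.132 to 0.735 ± 0.104 CPM (log2 fold change -2.81, adjusted p = 6.08e-08). Havcr2 and Pdpn are both known as targets of Blimp1 and c-Maf in T cells. Lag3 and Itga2, surface markers of Tr1 cells named here after their values were seen, did not pass (adjusted p = 0.495 and 0.704).

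Of 14 regulatory T (Treg) cell genes, 5 rose and 6 fell. Gpr83 rose from 3.76 ± 0.586 to 13.6 ± 1.88 CPM (log2 fold change 1.86, adjusted p = 1.13e-07), whereas Il1rl1, the IL-33 receptor, fell by 1.07 on the log2 scale (adjusted p = 6.89e-07), Tnfrsf18 (GITR) by 0.59 (adjusted p = 1.3e-05) and Capg by 0.46 (adjusted p = 7.97e-05). Foxp3, the lineage factor of Treg cells and likewise named after its values were seen, rose from 12.8 ± 2.16 to 21.2 ± 2.30 CPM (log2 fold change 0.73, adjusted p = 0.000204), and the summed level of the Treg markers Foxp3 and Ikzf2 was 39.2 to 45.8 CPM in the control libraries and 59.9 to 64.2 CPM in the ALX-5407 libraries. Effector Treg cells are known to express Prdm1, Maf and Il10, and the part of these markers in the result was not tested. The 8 B cell markers summed to 9.91 to 11.7 CPM and 14.0 to 16.4 CPM, with none at 0 in every library. Of these, Pax5, Ms4a1 and Cd79a rose, by 0.90, 1.27 and 0.67 on the log2 scale (adjusted p = 0.00392, 0.00528 and 0.046), Fcer2a fell by 1.03 (adjusted p = 0.0111), and the part of the B cell markers in the result was not tested either. The 7 plasma cell markers, cells in which Prdm1 is high, summed to 31.7 to 32.1 CPM in the control libraries and 16.5 to 18.9 CPM in the ALX-5407 libraries, and Tnfrsf17 was at 0 throughout. That sum was nearly all Igkc, which fell from 15.3 to 4.77 CPM on average, and Sdc1, which fell from 14.9 to 10.2 CPM (adjusted p = 5.31e-07 and 0.000918). Mzb1, another plasma cell marker, rose from 0.875 to 2.03 CPM (log2 fold change 1.21, adjusted p = 0.00305), and its part in the result was not tested. Macrophage and monocyte markers, 8 of 9 under 1 CPM on average, summed to 15.2 to 20.9 CPM and 5.32 to 6.33 CPM, mostly from Cd68, with C1qa and C1qb at 0. The dendritic cell list summed to 4.18 to 4.87 CPM and 3.28 to 3.73 CPM, with Cd209a and Siglech at 0. NK cell markers summed to 13.6 to 18.1 CPM and 11.4 to 13.3 CPM, and CD8 T cell markers to 9.25 to 9.59 CPM and 6.71 to 8.87 CPM. Of the neutrophil markers, S100a8, S100a9, Elane and Csf3r were at 0, and the sum of 69.9 to 75.3 CPM against 24.1 to 31.6 CPM came nearly all from Ly6g. Erythroid and platelet markers summed to 0.921 to 1.59 CPM and 1.80 to 3.62 CPM.

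Around Tgfb1, 5 of 10 tested genes of ligands and their activation rose and 4 fell. Nrros, which holds latent TGF-β, rose from 11.4 ± 1.29 to 26.8 ± 2.31 CPM (log2 fold change 1.23, adjusted p = 2.34e-07), and Furin, the protease that cleaves the TGF-β precursor, rose from 690 ± 57.0 to 1094 ± 10.7 CPM (log2 fold change 0.66, adjusted p = 2.29e-06). Tgfb3, the paralog, fell from 103 ± 15.6 to 65.0 ± 4.76 CPM (log2 fold change -0.67, adjusted p = 3.41e-05), opposite in direction to Tgfb1, and Ltbp2 fell by 2.21 on the log2 scale (adjusted p = 6.5e-06). Of 15 tested receptors and SMAD genes, 6 rose and 5 fell. Both signalling receptors rose, Tgfbr1 by 0.79 (adjusted p = 2.74e-05) and Tgfbr2 by 0.70 on the log2 scale (adjusted p = 1.17e-06). Smad3, which carries the signal to the nucleus, rose from 63.7 ± 5.63 to 130 ± 1.54 CPM (log2 fold change 1.03, adjusted p = 3.03e-08), and Ski, which opposes SMADs, rose by 0.76 (adjusted p = 4.23e-07).

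Of the E proteins that Id2 sequesters and the other ID genes, 5 of 6 were tested, 2 rose and 1 fell. Tcf3, which encodes E2A, rose from 71.4 ± 2.65 to 118 ± 3.93 CPM (log2 fold change 0.73, adjusted p = 4.6e-07), and Tcf12 rose by 0.33 on the log2 scale (adjusted p = 0.00109), whereas Tcf4 fell by 0.52 (adjusted p = 0.000232). Among paralogs of the transcription factors, 5 of 15 rose and 4 fell. Prdm9 fell from 15.9 ± 1.49 to 10.1 ± 0.428 CPM (log2 fold change -0.65, adjusted p = 0.000197), opposite in direction to Prdm1. Of the small MAF genes, Maff fell by 0.54 and Mafk rose by 0.46 on the log2 scale (adjusted p = 0.00111 and 0.00134).

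**Figure D5:**
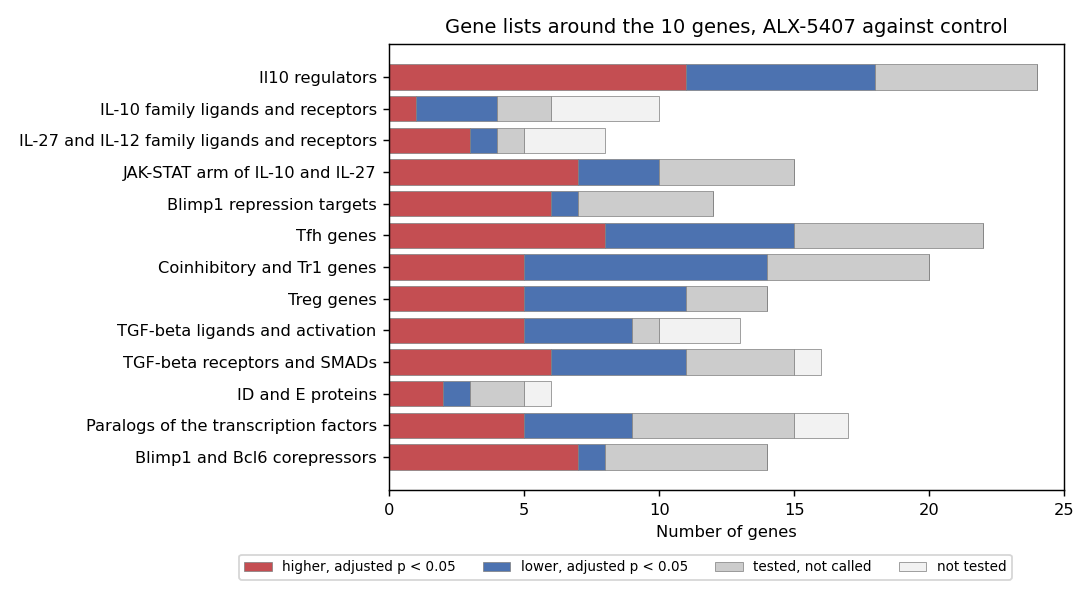
Number of genes (x axis) in each of the 13 lists around the 10 genes that rose, fell, did not pass an adjusted p of 0.05 or were not tested, ALX-5407 against control. Genes rose and fell in every list, with 11 against 7 for the Il10 regulators and 5 against 9 for the coinhibitory and Tr1 genes.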

How the data were processed

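Gene counts of 3 control and 3 ALX-5407 libraries were used. The authors deposited raw counts, whole numbers of reads per gene with no normalization and no pooling, with gene symbols, GRCm38 coordinates and gene lengths. The submitters' processing notes name fastp, HISAT2 2.0.5, featureCounts 1.5.0-p3 and the build mm10. Annotation release, strand setting and treatment of multimapping reads are not given in the sources used here. The sample titles give 72 h under Th1 conditions with ALX-5407 treatment, without a separate time for the compound, and the labels give poly-T capture. The study's methods give a shorter exposure to ALX-5407 and ribosomal RNA depletion. The labels were followed.

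In R 4.3.3, edgeR 4.0.16 was run over all genes with filterByExpr (minimum count 10, minimum total 15), TMM scaling and the quasi-likelihood F test, two-sided, with Benjamini-Hochberg adjustment over 15938 genes. The steps were tested on simulated data. CPM use TMM-scaled library sizes. The biological coefficient of variation was 0.0978. An exact permutation test of 3 against 3 libraries cannot give a p below 0.1, so none was used. Each library counted as 1 sample. Pairs of libraries within a group differed by more than counting noise (chi-square over degrees of freedom 5.60 to 22.3). That spread does not show whether they came from separate mice. Standard errors come from the fold change and its F statistic. Spans and exons came from GENCODE M21 on GRCm38, which gives the same span and length for all 10 genes. Promoters came from RefSeq on GRCm38.p6.

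The 10 genes, the lists and the markers were chosen with earlier results of these data known. Named genes were the 10 and up to 4 called genes per list with the smallest p and a mean count of at least 50. The genes nearest in profile to Prdm1 and Il10 (a pseudocount of 0.1 CPM) were named too. Markers of the cell types and genes that share exons with the 10 were named as well. Some genes that the rule takes are not reported here. The alternatives were RLE and upper-quartile scaling, DESeq2 1.42.0, limma-voom (limma 3.58.1), other filters on low counts, protein-coding genes only, a block for the replicate number, a fold change threshold and leaving out each library. No other experiment of the study was analysed here.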

Additional observations from a re-analysis of the deposited data

How the results depend on the processing

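Adding a log2 fold change beyond 1 to the adjusted p left 1600 of the 7605 genes called over the whole table, 3 of the 7 called among the 10 genes and 26 of the 112 called among the list genes. When 1 library was left out, these counts lay between 6599 and 7665, between 6 and 8, and between 101 and 105. Bcl6 was lost without ALX-5407 replicate 1, and Il10ra was added without control replicate 2 and in the fit of protein-coding genes only. RLE scaling, upper-quartile scaling, DESeq2, limma-voom and the filters on low counts left the same 7 of the 10 genes called. Over all genes the balance of 3910 higher and 3695 lower calls turned to 3767 and 3817 with RLE scaling, 3413 and 4158 with upper-quartile scaling and 3754 and 3766 with DESeq2. Of 140 log2 fold changes of the 10 genes under the alternatives, 138 moved by less than the spread between replicates, and the others were Ebi3 under upper-quartile scaling (-0.24) and with protein-coding genes only (-0.23). Across the alternatives Prdm1 lay between 2.19 and 2.31, Maf between 1.24 and 1.36, Il10 between 1.13 and 1.27 and Bcl6 between -0.82 and -0.46. Among the 48 list genes that the naming rule takes, 663 of 672 values stayed on the same side of the threshold, and the other 9 were all of Il20rb. Only 1 of the 10 genes kept its place in the order of control levels without division by gene length, and the Prdm1 to Bcl6 ratio in the control group was 2.96 by counts instead of 3.56. Bcl6 and Ebi3, at 106 to 219 and 151 to 163 counts, were the least precise of the 10.

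With the replicate number as a block, 7904 genes, the same 7 of the 10 genes and 112 list genes were called. Whether the numbers pair the libraries is not known. Deviations of same-numbered libraries from their group means correlated across genes at 0.0089, 0.018 and 0.104. Control replicates 2 and 3 correlated best with the ALX-5407 library of their own number, and control replicate 1 with ALX-5407 replicate 2 (0.0925). With 3 libraries per group the deviations within a group depend on each other, so these correlations cannot decide it.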
